A study of Mus musculus with 12 samples.

Results

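The 37 genes described here encode the machinery that takes secretory and membrane proteins into the endoplasmic reticulum (ER), glycosylates them there and packs them into vesicles bound for the Golgi. They were chosen as a list of gene symbols, with no measured value in the rule but with earlier results of these data known. They were matched to the symbols of the array's annotation. Of the 37 genes, 36 had a probe set that carries their symbol alone, and the brightest such probe set stood for each gene. Sec61g, the small gamma subunit of the Sec61 channel, lay only on 4 probe sets that carry 3 symbols each and has no value here. All 36 were bright enough to be tested, as were 13987 of the 19935 genes on the array that have a probe set of their own.

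Transcripts were measured in whole liver on the Affymetrix Mouse Gene 1.0 ST array, which reads a transcript through many short probes along its length. The livers came from ovariectomised mice, 3 months old and labelled C57BL/6, of 3 genotypes: wild type, ERKO, which lack oestrogen receptor alpha, and MOER, in which the receptor is restricted to the cell membrane. After 1 week of recovery the mice were injected daily for 3 days with 100 µg of PPT, a selective agonist of oestrogen receptor alpha, or with 0.1 mL of oil, so every group lacks ovarian hormone and the oil groups are the controls. Each array held the pooled RNA of 3 animals and each of the 6 groups has 2 arrays, 12 in all. The labels leave unsaid whether the pools behind the 2 arrays of a group held separate animals, so the p-values reflect array-to-array spread, which may be technical. How the MOER receptor is driven, and in which cells, is not stated there either.

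A nascent secretory protein is recognised by the signal recognition particle, handed to its receptor on the ER and threaded through the Sec61 channel, where signal peptidase removes the signal peptide and the oligosaccharyltransferase attaches a preassembled sugar tree to asparagine residues. Folded cargo then leaves in vesicles that the GTPase Sar1 and the COPII coat, an inner Sec23 and Sec24 layer and an outer Sec13 and Sec31 cage, bud from the ER. Hepatocytes export most plasma proteins along this route, and the same genes are known to be raised when the ER is loaded, through the transcription factors XBP1 and ATF6.

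Array medians ran from 77.5 to 85.3 intensity units. Replicate arrays correlated at 0.994 to 0.996 over the probe sets tested in 5 groups and at 0.981 in ERKO oil, whose second array read the 36 genes lower than the first, with a median difference of -0.15 on the log2 scale. Esr1, the gene of the receptor, gave 356 ± 12.6 in wild type oil (mean ± SD, n = 2), against 122 ± 5.62 in ERKO oil and 127 ± 0.926 in MOER oil. The sources used here do not say which part of the Esr1 transcript its probes cover. The 8 hepatocyte markers were bright in every group, with a summed intensity of 70706 to 96362.

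PPT raised most of this machinery in wild type liver. Of the 36 genes 30 rose and 0 fell, where 15.2% of all genes tested rose and 17.9% fell (limma, Benjamini-Hochberg adjusted p under 0.05). At an unadjusted p under 0.05 limma gave 31 higher and 1 lower, and a Cyber-T-style test (a per-group variance moderated by probe sets of like intensity, after the program the labels name) gave 32 and 2. Their median log2 change was 0.76, against 0.0046 over all genes, and 13 of them rose at least 2-fold. Both wild type PPT arrays lay above all 10 other arrays for 25 of the 36 genes, a separation that 19% of all genes tested also showed. The 6 genes not called were Sec63, Rpn2, Sec24a, Sec24b, Sec24c and Sar1b.

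Fewer genes were called in the other genotypes. In MOER 5 of the 36 genes rose and 1 fell, where 2.52% of all genes rose and 2.4% fell, with a median of 0.087 against 0.0022 over all genes. Every MOER call but that of Rpn2 depended on 1 array: the total of 6 became 3 without either wild type oil array, either wild type PPT array, the first MOER oil array or the second MOER PPT array, and 1 without the second MOER oil array or the first MOER PPT array. In ERKO 9 rose and 7 fell, where 7.44% of all genes rose and 9.48% fell, with a median of 0.086 against 0.0016. Without the second ERKO PPT array the ERKO counts were 6 higher and 2 lower. In this fit the directions split by role. Every gene that rose in ERKO acts in targeting, translocation or signal peptide removal, and all 7 that fell belong to the COPII coat or the oligosaccharyltransferase. The split was not clean under other settings. With quantile normalization limma called Ddost, of the oligosaccharyltransferase, higher in ERKO (0.28, adjusted p = 0.0187). It called Srp68, of the signal recognition particle, lower (-0.31, adjusted p = 0.0117), and median centring gave the same 2 calls. Nor did the split hold outside the 36 genes. Of 6 further oligosaccharyltransferase subunits 4 rose in ERKO, and of 31 COPII accessory factors, cargo receptors and tethers 5 rose and 5 fell.

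The difference between responses was tested directly. The wild type response exceeded the MOER response for 25 of the 36 genes, where 11.2% of all genes had a higher and 12.7% a lower wild type response, with a median difference of 0.61. It also exceeded the ERKO response for 25, where 11.4% of all genes were higher and 12.2% lower, with a median difference of 0.65. By limma 0 of the 36 were called lower in either comparison, and at an unadjusted p under 0.05 the counts were 28 higher and 2 lower against MOER and 26 higher and 1 lower against ERKO. The Cyber-T-style test compares 2 groups and was not run on differences between responses. Both comparisons use the same wild type arrays. The wild type minus MOER comparison also rests on the MOER oil arrays, which carried RNA of pancreatic acinar cells, a secretory cell type rich in this same machinery: 12 of 13 acinar markers were called higher in that comparison, against 1 higher and 2 lower in wild type minus ERKO. The part of that RNA in the 25 calls was not tested. For 21 genes the wild type response was called above both others. MOER and ERKO responses differed for 8 genes, 5 higher and 3 lower in MOER, where 6.53% of all genes were higher and 5.08% lower.

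**Figure D1:**
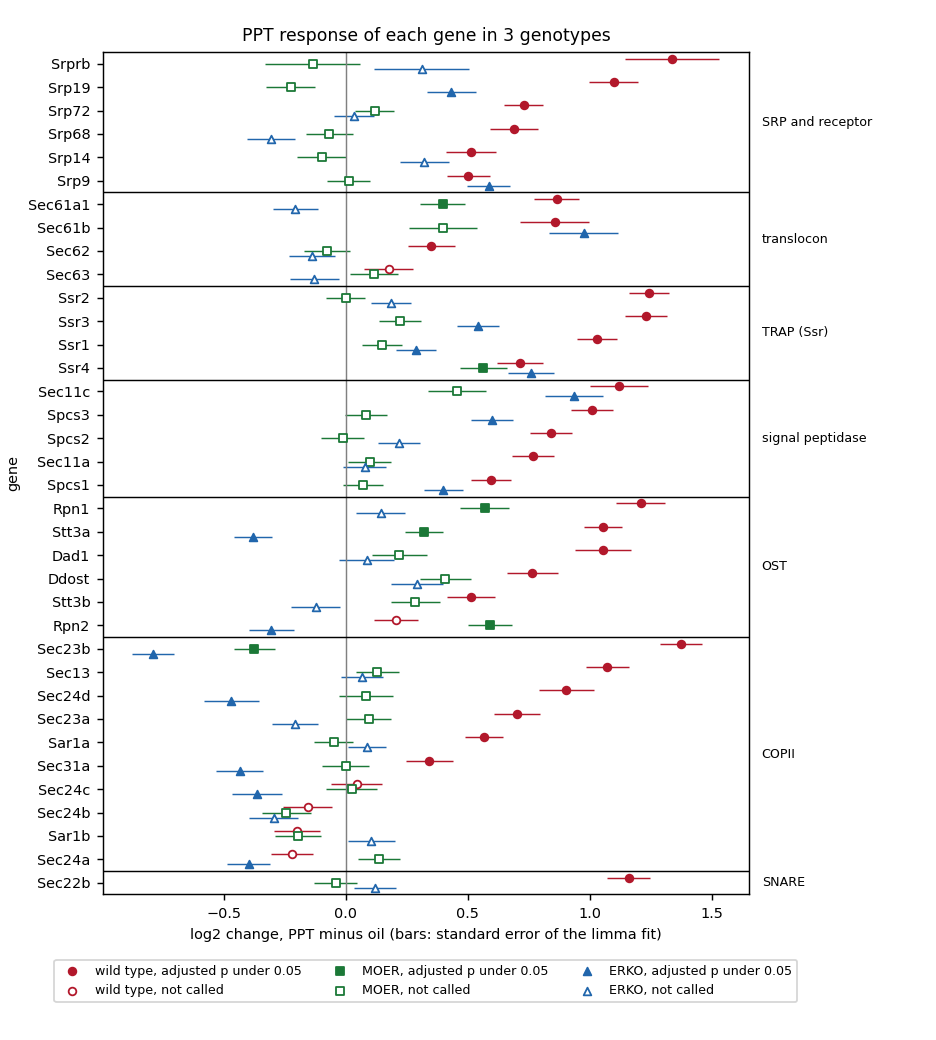
Log2 change from oil to PPT (horizontal axis) of each of the 36 genes (vertical axis, grouped by role) in wild type (circles), MOER (squares) and ERKO (triangles), with the standard error of the fit as bars. Filled symbols passed an adjusted p of 0.05, and 30 filled circles lie to the right of 0, while the filled triangles split into 9 on the right and 7 on the left.

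Markers of other cells were also called in the wild type response, where 15.2% of all genes tested rose and 17.9% fell. For the hepatocyte, endothelial and stellate lists, which hold few genes, the counts below lie near those shares. In the deposited samples of whole liver, fewer cells of a type and less RNA per cell cannot be told apart. The summed intensity of 8 neutrophil markers was 284 to 330 in wild type oil and 4101 to 4148 in wild type PPT, with 5 of the 7 tested higher. Most of the sum under PPT was Prtn3, a granule protease, at 66.7 and 54.7 under oil and 3634 and 3575 under PPT. The other 7 summed to 229 to 263 and then 514 to 525, and Ltf gave -0.31, not called (adjusted p = 0.0765). Proliferation markers summed to 230 to 259 under oil and 622 to 637 under PPT, with 2 of 3 tested higher. Macrophage and Kupffer markers summed to 7205 to 7343 and then 8868 to 8918, with 4 of 8 higher and 1 lower. Endothelial markers went from a sum of 5675 to 5934 to one of 3392 to 3478, with 2 of 6 lower and 1 higher, and hepatocyte markers from 87350 to 88011 to 70706 to 75611, with 2 of 8 lower and 1 higher. Stellate and fibroblast markers summed to 6326 to 6363 and then 5393 to 5420, with 2 of 7 lower. For plasma cells, which are rich in ER, 1 of 3 tested markers was higher (Jchain, 0.64) and 1 lower (Sdc1, -0.78). Their sum was 1161 to 1204 under oil and 757 to 789 under PPT, most of it Sdc1, which epithelial cells also make, and without Sdc1 it was 136 to 145 and then 169 to 174. Prtn3 and Sdc1 were set apart after their values were seen. No marker of any list was at 0, but some were dim. In wild type oil 6 of 8 neutrophil, 5 of 6 plasma cell and 2 of 4 proliferation markers exceeded the 40th percentile on neither array. In wild type PPT these numbers were 4, 4 and 0. The part of these markers in the wild type changes was not tested.

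Other markers were called in the ERKO response, where 7.44% of all genes rose and 9.48% fell, and in the MOER response, where 2.52% rose and 2.4% fell. In ERKO 4 of the 7 tested neutrophil markers fell, their sum being 1674 to 2227 under oil and 1254 to 1309.9 under PPT. Of 8 macrophage and Kupffer markers 5 fell in ERKO, with sums of 7539 to 8435 and then 6682 to 6805, and 3 of 8 hepatocyte markers fell. In the same response 2 of 6 endothelial and 2 of 7 stellate and fibroblast markers rose. Of 66 ribosomal protein genes, identified by symbol, 30 rose in ERKO, where 7.44% of all genes rose. In MOER 12 of 13 pancreatic acinar markers fell, from a sum of 37334 to 47577 under oil to one of 791 to 838 under PPT, and 3 of 8 macrophage and Kupffer markers rose and 1 fell. The part of these markers in the responses of the 36 genes was not tested.

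**Figure D2:**
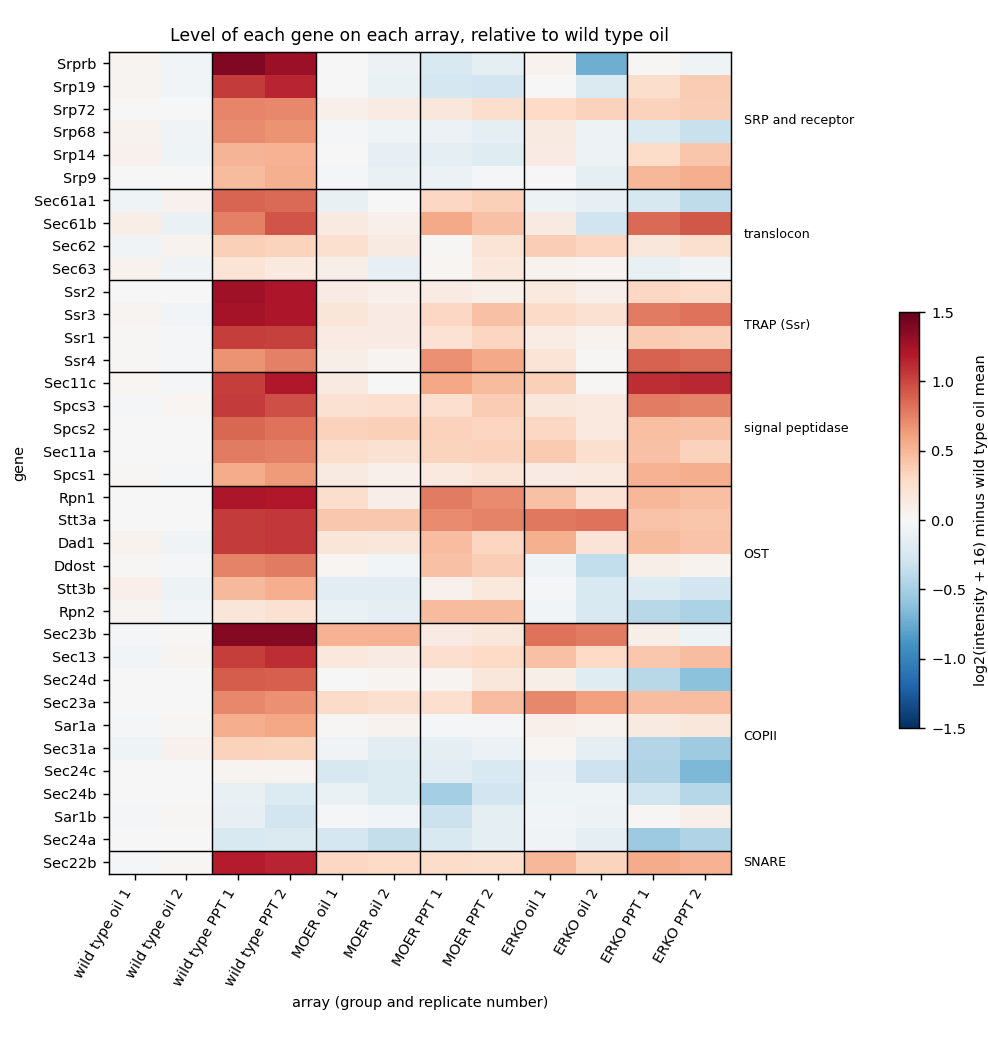
Level of each gene (rows, grouped by role) on each of the 12 arrays (columns), as log2(intensity + 16) minus the mean of the 2 wild type oil arrays, from blue (lower) to red (higher). The wild type PPT columns are red for most rows, and the ERKO PPT columns are red in the signal peptidase and TRAP rows and blue in several COPII rows. These colours include differences already present under oil. ERKO oil minus wild type oil was 0.14 to 0.32 for signal peptidase genes and 0.078 to 0.26 for TRAP genes, none called.

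The promoters of these genes were compared by the letters they hold, since so many of the genes moved together. RefSeq windows running from 250 bases before to 50 bases after the start, on GRCm38.p6, were found for 30 of the 36 genes. The unfolded protein response element, searched as TGACGTGG on both strands, is bound by XBP1 and ATF6. It was found in 2 of the 30, Sec23a and Sec24d, which is 6.67%. The shares were 0.995% of the 11060 tested genes with a window and 0.714% of all 27025 genes with a window. The core of the element, ACGTG, which every TGACGTGG also contains, was found in 16 of the 30 (53.3%), against 27.4% of tested genes and 21.8% of all genes with a window. It was present in 12 of the 24 genes with a window that rose in wild type and in 4 of the 6 that did not. CCAAT, the site of NF-Y, was found in 14 of the 30 (46.7%), against 41.6% and 41.1%. The longer ER stress elements ERSE (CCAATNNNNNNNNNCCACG) and ERSE-II were found in 0 of the 30, and in 0.154% and 0.0814% of tested genes. A match of letters is a description of the window and not evidence of binding. Printed below are the windows of the 2 coat genes that hold the full element, both of which rose in wild type, then Srprb, which rose and holds the core, and Sec24c, which holds the core and was not called. They lie at chr12:59011968-59012267 (minus strand), chr3:123267246-123267545 (plus strand), chr9:103202016-103202315 (minus strand) and chr14:20674071-20674370 (plus strand), are written 5′ to 3′ on the strand of the gene, and carry the element or its core, or the reverse complement of the core, in capitals.
Sec23a: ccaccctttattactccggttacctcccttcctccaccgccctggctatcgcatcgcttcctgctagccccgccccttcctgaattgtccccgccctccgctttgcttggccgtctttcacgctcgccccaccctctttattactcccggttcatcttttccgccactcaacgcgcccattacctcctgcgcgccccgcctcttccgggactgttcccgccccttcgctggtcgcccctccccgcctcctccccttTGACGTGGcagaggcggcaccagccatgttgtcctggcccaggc
Sec24d: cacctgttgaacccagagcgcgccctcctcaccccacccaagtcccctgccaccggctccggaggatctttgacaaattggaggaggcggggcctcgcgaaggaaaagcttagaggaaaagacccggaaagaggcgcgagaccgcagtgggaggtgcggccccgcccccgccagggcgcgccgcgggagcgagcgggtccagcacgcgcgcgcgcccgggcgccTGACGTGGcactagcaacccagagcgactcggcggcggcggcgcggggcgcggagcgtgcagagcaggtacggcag
Srprb: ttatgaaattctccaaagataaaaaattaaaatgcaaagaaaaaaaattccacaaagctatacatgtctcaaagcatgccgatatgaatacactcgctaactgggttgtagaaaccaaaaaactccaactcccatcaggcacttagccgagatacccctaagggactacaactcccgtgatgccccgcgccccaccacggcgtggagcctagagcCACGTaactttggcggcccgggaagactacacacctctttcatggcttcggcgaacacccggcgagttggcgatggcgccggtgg
Sec24c: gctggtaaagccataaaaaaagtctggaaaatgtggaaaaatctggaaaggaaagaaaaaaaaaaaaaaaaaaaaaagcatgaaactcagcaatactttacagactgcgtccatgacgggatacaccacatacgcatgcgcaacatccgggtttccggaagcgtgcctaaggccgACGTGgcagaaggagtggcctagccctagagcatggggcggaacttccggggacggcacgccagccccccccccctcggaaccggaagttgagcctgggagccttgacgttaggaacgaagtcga

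The signal recognition particle and its receptor rose as a whole in wild type liver, 6 of 6 genes, and 2 of 6 rose in ERKO. In MOER limma called 0 of the 6, and at an unadjusted p under 0.05 both it and the Cyber-T-style test gave 0 higher and 1 lower. Srprb, the beta subunit that anchors the receptor in the ER membrane, changed most. Its intensities were 218 and 205 in the wild type oil arrays, 578 and 537 in wild type PPT, 212 and 197 in MOER oil, 178 and 191 in MOER PPT, 220.1 and 121 in ERKO oil and 214 and 200.5 in ERKO PPT. All 10 other arrays lay far below wild type PPT and did not exceed 220.1, and the second ERKO oil array was the lowest of the 12. The wild type change was 1.34 ± 0.19 on the log2 scale (SE, 2.64-fold, adjusted p = 0.000354), and the changes in MOER, -0.14, and ERKO, 0.31, were not called. Srp19, which helps assemble the particle on its RNA, gave 309 and 292 in the wild type oil arrays, 639 and 683 in wild type PPT, 300.4 and 279.9 in MOER oil, 247 and 243 in MOER PPT, 301 and 256 in ERKO oil and 364 and 397 in ERKO PPT. Again wild type PPT was highest, followed by ERKO PPT. Srp19 rose in wild type by 1.10 ± 0.10 (2.2-fold, adjusted p = 1.22e-05) and in ERKO by 0.43 ± 0.10 (adjusted p = 0.0153, lost without the second ERKO PPT array, at 0.37 and adjusted p = 0.121), whereas MOER gave -0.23, not called. The wild type response exceeded that of MOER by 1.32 ± 0.14 and that of ERKO by 0.67 ± 0.14.

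Srp68 and Srp72 form the heterodimer of the particle's S domain. Srp68 gave 439 and 408 in the wild type oil arrays, 701 and 685 in wild type PPT, 415 and 404 in MOER oil, 398 and 382 in MOER PPT, 468 and 402 in ERKO oil and 362 and 334 in ERKO PPT. The ERKO PPT arrays were the lowest of all, and the log2 changes were 0.69 ± 0.097 in wild type (adjusted p = 0.000288), -0.068 in MOER and -0.31 in ERKO (adjusted p = 0.0523, not called), with a difference of 1.00 ± 0.14 between wild type and ERKO. Srp72 gave 954 and 946 in the wild type oil arrays, 1592 and 1576 in wild type PPT, 1000.0 and 1037 in MOER oil, 1072 and 1141 in MOER PPT, 1174 and 1211 in ERKO oil and 1211 and 1229 in ERKO PPT. Its wild type PPT arrays lay above all others, and its ERKO arrays lay above the wild type and MOER oil arrays whether oil or PPT was given. The wild type change was 0.73 ± 0.081, while MOER gave 0.12 and ERKO 0.032, neither called.

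Srp9 and Srp14 bind as a pair to the Alu end of the particle's RNA and slow elongation until docking. Srp9 gave 2599.7 and 2591 in the wild type oil arrays, 3600.1 and 3760.2 in wild type PPT, 2556 and 2414 in MOER oil, 2439 and 2569.7 in MOER PPT, 2612 and 2359 in ERKO oil and 3659 and 3803 in ERKO PPT. Wild type PPT and ERKO PPT arrays overlapped each other and lay above the remaining 8. The change was 0.50 ± 0.089 in wild type and 0.58 ± 0.089 in ERKO, and the difference between these was -0.084 ± 0.13 and was not called (adjusted p = 0.705). In MOER it was 0.011, below the wild type response by 0.49 ± 0.13 (adjusted p = 0.0173). A second Srp9 probe set rose by 0.55 in wild type and gave 0.31 in ERKO, not called there (adjusted p = 0.105). Srp14 rose by 0.51 ± 0.10 in wild type, with -0.10 in MOER and 0.32 in ERKO (adjusted p = 0.052).

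In the translocon 3 of 4 measured genes rose in wild type. Sec61a1, the pore of the channel, gave 942 and 1028 in the wild type oil arrays, 1818 and 1788 in wild type PPT, 906 and 976 in MOER oil, 1222 and 1266 in MOER PPT, 936 and 900.4 in ERKO oil and 834 and 754 in ERKO PPT. The order was wild type PPT, then MOER PPT, then the rest, with ERKO PPT lowest and no overlap between these 4 sets. The log2 change was 0.86 ± 0.092 in wild type (adjusted p = 3.80e-05), 0.40 ± 0.092 in MOER (adjusted p = 0.0354) and -0.21 in ERKO (adjusted p = 0.149), and all 3 differences between responses were called. The MOER call of Sec61a1 was lost without any 1 of the 10 arrays other than ERKO oil, with adjusted p from 0.0505 to 0.278. Sec61b, the tail-anchored beta subunit of the same channel, had another order of genotypes. It rose in ERKO by 0.97 ± 0.14 and in wild type by 0.86 ± 0.14, with 0.40 in MOER (adjusted p = 0.186), and ERKO PPT arrays, at 1034 and 1091, overlapped wild type PPT arrays, at 969 and 1106. The 3 probe sets of Sec61b gave 0.86 to 0.92 in wild type and 0.94 to 0.97 in ERKO.

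Sec62 and Sec63 form a complex at the channel that assists precursors with weak or short signals, Sec63 by recruiting the chaperone BiP. Sec62 gave 1551 and 1669 in the wild type oil arrays, 2072 and 2038 in wild type PPT, 1908 and 1768 in MOER oil, 1630.4 and 1858 in MOER PPT, 2081 and 2015 in ERKO oil and 1811 and 1905 in ERKO PPT. Wild type PPT and ERKO oil arrays overlapped at the top. Its wild type rise of 0.35 ± 0.095 (adjusted p = 0.0169) was no longer called without the first wild type oil array (0.30, adjusted p = 0.132), the first PPT array (0.34, adjusted p = 0.0941) or the second PPT array (0.36, adjusted p = 0.0758). Sec63 gave 1211 and 1119 in the wild type oil arrays, 1343 and 1290.0 in wild type PPT, 1233 and 1066 in MOER oil, 1185 and 1304 in MOER PPT, 1209 and 1196 in ERKO oil and 1079 and 1117 in ERKO PPT. Its groups overlapped, and its changes of 0.17, 0.11 and -0.13 in wild type, MOER and ERKO were not called.

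All 4 subunits of the translocon-associated protein complex (TRAP), which sits beside the channel and assists the entry of some signal sequences, rose in wild type. Ssr2, its beta subunit, gave 1400.1 and 1396 in the wild type oil arrays, 3391 and 3269 in wild type PPT, 1524 and 1481 in MOER oil, 1521 and 1480.4 in MOER PPT, 1553 and 1477 in ERKO oil and 1735 and 1713 in ERKO PPT. Wild type PPT was separated from the other 10 arrays, which lay between 1396 and 1735. The change was 1.24 ± 0.081 (2.38-fold, adjusted p = 9.65e-07) in wild type, and -0.0015 ± 0.081 and 0.19 ± 0.081, neither called, in MOER and ERKO. Ssr3, the gamma subunit, gave 2903 and 2757 in the wild type oil arrays, 6761 and 6557 in wild type PPT, 3207 and 3094 in MOER oil, 3519.9 and 3844 in MOER PPT, 3449 and 3313 in ERKO oil and 4848 and 4996 in ERKO PPT. Wild type PPT was highest, ERKO PPT second and without overlap with the rest. The log2 changes were 1.23 ± 0.086 in wild type, 0.22 in MOER (adjusted p = 0.239) and 0.54 ± 0.086 in ERKO (adjusted p = 0.00224).

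Ssr1, the alpha subunit, repeated this order at smaller size in ERKO. Its intensities were 987 and 956 in the wild type oil arrays, 2008 and 1988 in wild type PPT, 1062 and 1059 in MOER oil, 1135 and 1219 in MOER PPT, 1047 and 1004 in ERKO oil and 1265 and 1246 in ERKO PPT. It rose by 1.03 ± 0.082 in wild type and by 0.29 ± 0.082 in ERKO, the latter call being lost in 8 of the 12 fits that leave out 1 array, where the adjusted p reached 0.141. Ssr4, the delta subunit, was the only gene of the 36 that rose in all 3 genotypes. It gave 2352 and 2288 in the wild type oil arrays, 3696 and 3931 in wild type PPT, 2456 and 2388 in MOER oil, 3746 and 3433 in MOER PPT, 2673 and 2343 in ERKO oil and 4311 and 4184 in ERKO PPT. All 6 PPT arrays lay above all 6 oil arrays, and the ERKO PPT arrays were the highest. The log2 changes of 0.71 ± 0.095, 0.56 ± 0.095 and 0.76 ± 0.095 in wild type, MOER and ERKO did not differ at the threshold in any of the 3 tests between them, with a difference of 0.15 ± 0.13 between wild type and MOER and of -0.046 ± 0.13 between wild type and ERKO. The MOER call was lost without the second MOER oil array (0.54, adjusted p = 0.0618) or the first MOER PPT array (0.50, adjusted p = 0.0729).

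Signal peptidase rose in wild type in 5 of 5 genes and in ERKO in 3 of 5. In MOER limma called 0 of the 5, with 1 higher and 0 lower at an unadjusted p under 0.05 by limma and by the Cyber-T-style test. Its catalytic subunit is either Sec11a or Sec11c, which are paralogues. Sec11c gave 864 and 830.3 in the wild type oil arrays, 1758 and 1964 in wild type PPT, 932 and 854 in MOER oil, 1274 and 1188 in MOER PPT, 1087 and 854 in ERKO oil and 1849.8 and 1867 in ERKO PPT. Both ERKO PPT arrays fell between the 2 wild type PPT arrays, and the MOER PPT arrays lay between these and the oil arrays. The log2 change was 1.12 ± 0.12 in wild type, 0.94 ± 0.12 in ERKO and 0.46 in MOER (adjusted p = 0.0594, not called). Limma called this MOER rise under several other settings that kept all arrays, with adjusted p from 0.0119 to 0.0329. These were an added 64, quantile normalization, median centring, a 60th percentile filter and a trended prior. Sec11a gave 1866 and 1851 in the wild type oil arrays, 3194 and 3153 in wild type PPT, 2235 and 2181 in MOER oil, 2353 and 2374 in MOER PPT, 2442 and 2201 in ERKO oil and 2532 and 2361 in ERKO PPT. Only wild type showed a called rise of Sec11a, 0.77 ± 0.087 against 0.098 in MOER and 0.076 in ERKO, and both differences were called. In ERKO the change of Sec11c was thus called and that of Sec11a was not, a difference between probe sets that was not tested.

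Spcs3, the subunit on which catalysis depends, gave 1737 and 1824 in the wild type oil arrays, 3711 and 3490.3 in wild type PPT, 2082 and 2115 in MOER oil, 2118 and 2331 in MOER PPT, 2005 and 1966 in ERKO oil and 3036 and 2993 in ERKO PPT. It followed a stepped order, wild type PPT above ERKO PPT above all other arrays, with changes of 1.01 ± 0.087, 0.60 ± 0.087 and, in MOER, 0.082. Spcs2, a subunit dispensable for cleavage in yeast, gave 2374 and 2412 in the wild type oil arrays, 4355 and 4237 in wild type PPT, 3049.7 and 3059 in MOER oil, 3047 and 3003 in MOER PPT, 2979 and 2644 in ERKO oil and 3269 and 3257 in ERKO PPT. The wild type PPT arrays lay above the rest and the wild type oil arrays below the rest. The response was 0.84 ± 0.086 in wild type, with -0.014 in MOER and 0.22 in ERKO, neither called. Spcs1, the smallest subunit, gave 3169 and 3103 in the wild type oil arrays, 4621 and 4874 in wild type PPT, 3432 and 3300.1 in MOER oil, 3464 and 3606 in MOER PPT, 3421 and 3473 in ERKO oil and 4518 and 4584 in ERKO PPT. ERKO PPT came close to wild type PPT without overlap, and the changes of 0.60 ± 0.081 in wild type and 0.40 ± 0.081 in ERKO differed by 0.20 ± 0.12, not called (adjusted p = 0.266), whereas MOER gave 0.070. The ERKO call of Spcs1 was lost without the second ERKO PPT array (0.39, adjusted p = 0.0676).

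Of the 6 oligosaccharyltransferase genes 5 rose in wild type, 3 rose in MOER and 2 fell in ERKO, and the wild type response exceeded the ERKO response for all 6. Rpn1, ribophorin I, which presents some substrates to the enzyme, gave 860.2 and 859 in the wild type oil arrays, 2011 and 2002 in wild type PPT, 1033 and 919.7 in MOER oil, 1489.6 and 1418 in MOER PPT, 1176 and 1002 in ERKO oil and 1219.9 and 1181 in ERKO PPT. Wild type PPT was highest and MOER PPT second, both apart from the other 8 arrays. The log2 change was 1.21 ± 0.10 in wild type (2.33-fold, adjusted p = 5.87e-06), 0.57 ± 0.10 in MOER (adjusted p = 0.00777) and 0.14 in ERKO. The MOER call of Rpn1 was lost without the second MOER oil array (0.49, adjusted p = 0.0952) or the first MOER PPT array (0.53, adjusted p = 0.0826).

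Rpn2, ribophorin II, ran in another order. It gave 775 and 733 in the wild type oil arrays, 858 and 884 in wild type PPT, 705 and 684 in MOER oil, 1056 and 1051 in MOER PPT, 731 and 639.7 in ERKO oil and 562 and 538 in ERKO PPT. The MOER PPT arrays were the highest of the 12 and the ERKO PPT arrays the lowest. The change in wild type, 0.20 ± 0.091, was not called (adjusted p = 0.12), that in MOER was 0.59 ± 0.091 (adjusted p = 0.00315) and that in ERKO -0.31 ± 0.091 (adjusted p = 0.0424). The MOER response exceeded that of ERKO by 0.90 ± 0.13 (adjusted p = 0.00152), and its excess over wild type missed the threshold (wild type minus MOER -0.39 ± 0.13, adjusted p = 0.0566). The ERKO fall was lost in 11 of the 12 fits without 1 array, with adjusted p up to 0.208.

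Stt3a and Stt3b are alternative catalytic subunits, Stt3a in the enzyme docked at the channel and Stt3b in the one that modifies sites skipped during synthesis. Stt3a gave 1522 and 1531 in the wild type oil arrays, 3174 and 3197 in wild type PPT, 2026 and 2022 in MOER oil, 2498 and 2561 in MOER PPT, 2652 and 2696 in ERKO oil and 2054 and 2049 in ERKO PPT. Within each genotype the oil and PPT arrays were separate, PPT above oil in wild type and MOER and below oil in ERKO. The responses were 1.05 ± 0.078, 0.32 ± 0.078 and -0.38 ± 0.078, all called, and all 3 differences between them were called. The ERKO call was lost without the second ERKO PPT array (-0.38, adjusted p = 0.0645). The MOER call of Stt3a rested on each array other than those of ERKO oil, since its adjusted p was 0.0814 to 0.246 without any 1 of the other 10. Stt3b gave 755 and 680.3 in the wild type oil arrays, 1010.3 and 1049 in wild type PPT, 636 and 634 in MOER oil, 751 and 803 in MOER PPT, 707 and 610.4 in ERKO oil and 621 and 584 in ERKO PPT. Only the wild type change, 0.51 ± 0.10, was called, with 0.28 in MOER (adjusted p = 0.183) and -0.12 in ERKO.

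Dad1, a small core subunit, gave 1133 and 1051 in the wild type oil arrays, 2269 and 2293 in wild type PPT, 1241 and 1227 in MOER oil, 1509 and 1373 in MOER PPT, 1587 and 1254 in ERKO oil and 1526 and 1470.0 in ERKO PPT. The wild type PPT arrays lay apart from all others, at a change of 1.05 ± 0.11, and the first ERKO oil array read higher than the second. MOER and ERKO gave 0.22 and 0.085, neither called. Ddost, another core subunit, rose by 0.76 ± 0.11 in wild type, and its 0.41 in MOER and 0.29 in ERKO were not called (adjusted p = 0.0575 and 0.0821). With all arrays kept, limma called the MOER rise of Ddost under the settings listed for Sec11c (adjusted p = 0.0081 to 0.0306). The ERKO rise of Ddost was called with quantile normalization, median centring or a trended prior (adjusted p = 0.0187 to 0.0421).

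The COPII coat was divided. Of its 10 genes 6 rose in wild type, and in ERKO 5 fell and limma called 0 higher, with 0 higher and 7 lower at an unadjusted p under 0.05 and 0 and 6 by the Cyber-T-style test. Sec23b, one of the paralogous Sec23 proteins that activate the GTPase activity of Sar1, had the highest change of all 36 genes. It gave 441 and 449 in the wild type oil arrays, 1179 and 1178 in wild type PPT, 643 and 647 in MOER oil, 487 and 501 in MOER PPT, 794 and 773 in ERKO oil and 472 and 422 in ERKO PPT. The wild type oil arrays were among the 4 lowest, together with ERKO PPT, while the oil arrays of MOER and ERKO were higher. PPT moved the genotypes in opposite directions, 1.37 ± 0.085 in wild type (2.65-fold, adjusted p = 7.34e-07), -0.38 ± 0.085 in MOER (adjusted p = 0.0326) and -0.79 ± 0.085 in ERKO (adjusted p = 0.000183). Wild type exceeded MOER by 1.75 ± 0.12 and ERKO by 2.16 ± 0.12. The MOER fall was not called without any 1 of the wild type or MOER arrays, with adjusted p from 0.0688 to 0.196.

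Sec23a, its paralogue, gave 1046 and 1047 in the wild type oil arrays, 1735 and 1690.1 in wild type PPT, 1278 and 1241 in MOER oil, 1248 and 1447 in MOER PPT, 1742 and 1615 in ERKO oil and 1451 and 1448 in ERKO PPT. Wild type PPT and ERKO oil overlapped at the top and wild type oil lay lowest. The log2 change of 0.70 ± 0.094 in wild type was called, and those of 0.093 in MOER and -0.21 in ERKO were not. Both Sec23 genes therefore rose in wild type from oil levels that were lower than in ERKO.

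The 4 Sec24 paralogues, which bind cargo for the inner coat, were called differently. Sec24d gave 276 and 279 in the wild type oil arrays, 535 and 530.3 in wild type PPT, 279 and 285 in MOER oil, 285 and 315 in MOER PPT, 296 and 243 in ERKO oil and 204 and 175 in ERKO PPT. Its wild type PPT arrays lay far above the rest and its ERKO PPT arrays were lowest. It rose by 0.90 ± 0.11 in wild type (adjusted p = 0.000109), fell in ERKO (-0.47 ± 0.11, adjusted p = 0.0166) and gave 0.082 in MOER. Sec24c gave 433 and 436 in the wild type oil arrays, 449 and 448 in wild type PPT, 367 and 375 in MOER oil, 388 and 368 in MOER PPT, 406 and 348 in ERKO oil and 313 and 266 in ERKO PPT. The wild type groups did not differ at the threshold (0.044 ± 0.10, adjusted p = 0.79), and the ERKO fall of -0.36 ± 0.10 (adjusted p = 0.0363) was called. Sec24a fell in ERKO as well, by -0.40 ± 0.087, and gave -0.22 in wild type (adjusted p = 0.0808) and 0.14 in MOER. Sec24b was called in no genotype, at -0.16, -0.24 and -0.30. The ERKO call of Sec24c was lost in 10 of the 12 fits that leave out 1 array, with adjusted p from 0.0518 to 0.256, and when no filter on low values was applied (adjusted p = 0.0691). Without the second ERKO PPT array the ERKO changes of Sec24d (-0.37, adjusted p = 0.141) and Sec31a (-0.38, adjusted p = 0.102) were not called, and that of Sec24a was lost without the first (-0.35, adjusted p = 0.0837).

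Sec13, a strut of the outer cage that also serves in the nuclear pore, gave 587 and 619.9 in the wild type oil arrays, 1255 and 1313 in wild type PPT, 677 and 661 in MOER oil, 723 and 743 in MOER PPT, 822 and 743 in ERKO oil and 800.4 and 837 in ERKO PPT. The wild type PPT arrays lay above all others and the change was 1.07 ± 0.088 (2.13-fold, adjusted p = 5.41e-06), with 0.13 in MOER and 0.066 in ERKO. Its partner Sec31a rose by 0.34 ± 0.097 in wild type (adjusted p = 0.0203) and fell in ERKO (-0.44 ± 0.097, adjusted p = 0.0123), with -0.0017 in MOER. The wild type call of Sec31a was lost without the first wild type oil array (0.28, adjusted p = 0.154), the first PPT array (0.34, adjusted p = 0.0963) or the second (0.34, adjusted p = 0.0944). Of the Sar1 GTPases that start coat assembly, Sar1a rose by 0.57 ± 0.079 in wild type, with -0.051 in MOER and 0.087 in ERKO. Sar1b, the form mutated in chylomicron retention disease, gave -0.20, -0.20 and 0.10 and was called in none.

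**Figure D3:**
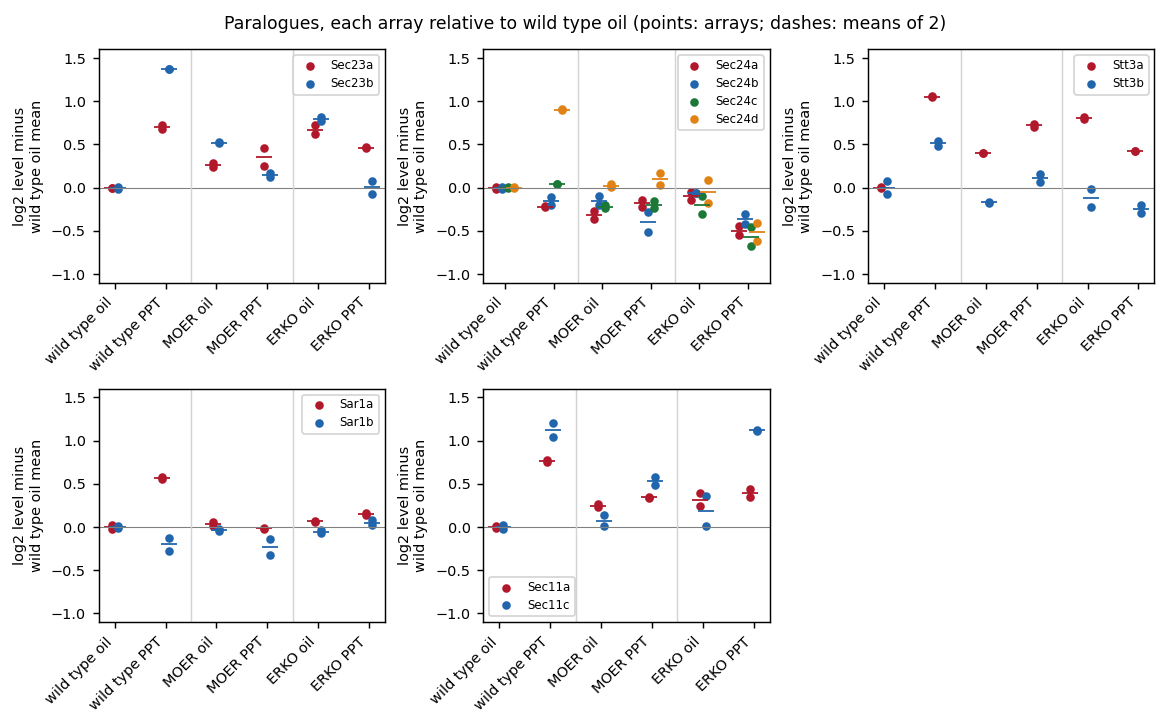
Level of each paralogue (colours within a panel) on each array, as log2(intensity + 16) minus the mean of its 2 wild type oil arrays, with points for arrays and dashes for the means of 2, in the 6 groups along the horizontal axis. Sec24d stands at 0.90 in wild type PPT while the other 3 Sec24 genes lie between -0.22 and 0.044, and Sar1a at 0.57 stands above Sar1b at -0.20.

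Sec22b is the SNARE that fuses ER-derived vesicles with their target membrane, and it ran with the coat genes that rose. It gave 695 and 713 in the wild type oil arrays, 1612 and 1570.1 in wild type PPT, 880.4 and 869.8 in MOER oil, 853 and 845 in MOER PPT, 1003 and 889 in ERKO oil and 1042 and 1014 in ERKO PPT. The wild type PPT arrays lay above and the wild type oil arrays below all others. The log2 change was 1.16 ± 0.087 in wild type (2.26-fold, adjusted p = 2.79e-06), against -0.043 in MOER and 0.12 in ERKO, and it exceeded the former by 1.20 ± 0.12 and the latter by 1.04 ± 0.12.

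Some of these genes already differed between genotypes under oil. Compared with wild type, 6 of the 36 were higher in ERKO and 0 lower, where 2.35% of all genes were higher and 2.89% lower, and 3 were higher in MOER and 0 lower, where 2.14% and 3.64% were. At an unadjusted p under 0.05 limma gave 12 higher and 0 lower for ERKO and 7 higher and 1 lower for MOER, and the Cyber-T-style test without a fold minimum gave 13 and 0 for ERKO and 12 and 3 for MOER. The 6 were Stt3a (0.80 ± 0.078, adjusted p = 0.000261), Sec23b (0.79 ± 0.085, adjusted p = 0.000522), Sec23a (0.67 ± 0.094), Sec22b (0.42 ± 0.087), Sec13 (0.37 ± 0.088) and Srp72 (0.32 ± 0.081). In all 6 the mean of MOER lay between those of wild type and ERKO: Stt3a went from 1527 ± 6.65 in wild type through 2024 ± 2.79 in MOER to 2674 ± 30.9 in ERKO, and Sec23b from 445 ± 5.48 through 645 ± 2.92 to 784 ± 14.3 (mean ± SD, n = 2). In MOER the called genes were Sec23b (0.52 ± 0.085), Stt3a (0.40 ± 0.078) and Spcs2 (0.35 ± 0.086). MOER and ERKO differed for 1 gene, Stt3a, lower in MOER by -0.40 ± 0.078 (adjusted p = 0.0284), and for 0 in the other direction, where 0.915% of all genes were higher and 1.24% lower in MOER. At an unadjusted p under 0.05 limma gave 0 higher and 6 lower, and the Cyber-T-style test 0 and 4.

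These counts under oil were small and moved with single arrays. In each comparison some fits that leave out 1 array also called genes in the opposite direction, and the ranges below add both directions. Leaving out 1 array gave 3 to 11 genes for ERKO against wild type, 0 to 6 for MOER against wild type and 0 to 4 for MOER against ERKO. The acinar RNA of the MOER oil arrays bears on the comparisons with MOER. The summed intensity of 13 acinar markers was 37334 to 47577 there and 566 to 867 in the other 10 arrays, and all 13 were higher in MOER than in wild type oil. Neutrophil markers under oil summed to 1674 to 2227 in ERKO and 896 to 1039 in MOER, against 284 to 330 in wild type. The part of these markers in the values of the 36 genes was not tested.

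The genes that rose and fell in ERKO differed in size on the genome, a property examined after the values had been seen. The 9 that rose span a median of 8.57 kb (1.84 to 22.8 kb) and the 7 that fell a median of 47.2 kb (20.6 to 100.8 kb) in the RefSeq annotation. Over the 36 genes the ERKO change and the logarithm of the span correlated at r = -0.71 (Spearman's rho -0.79), against -0.32 (rho -0.31) for the wild type change and -0.084 (rho -0.058) for the MOER change. Over 13950 genes tested the same correlations were -0.10 (rho -0.13) in ERKO, -0.077 (rho -0.10) in wild type and 0.0046 (rho -0.021) in MOER. Genes are not independent replicates, and the 36 points share the same 4 arrays in each genotype, so these are descriptions. Most of the longest genes of the list belong to the COPII coat or the oligosaccharyltransferase, so span and role cannot be told apart here. In ERKO short genes such as Ssr4, Sec61b and Srp9 lay near the top and long ones such as Sec24d and Sec24a near the bottom. In wild type long genes lay at both ends: Sec23b, Stt3a and Sec24d stood at 0.90 or above, while Sec24a (-0.22), Sec24b (-0.16), Sec63 (0.17), Rpn2 (0.20) and Sec31a (0.34) were among the lower values.

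**Figure D4:**
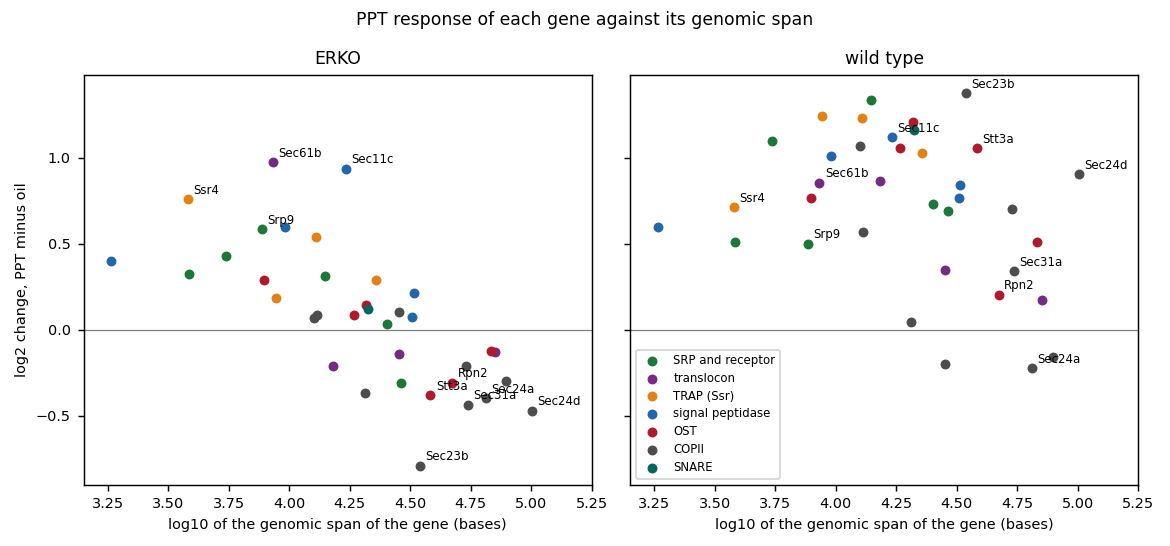
Log2 change from oil to PPT (vertical axis) of each of the 36 genes against the base-10 logarithm of its genomic span in bases (horizontal axis), in ERKO (left) and wild type (right), coloured by role. The ERKO points run from upper left to lower right, r = -0.71, and the wild type points are more scattered, r = -0.32.

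Other genes of the pathway were counted in the same fit, in lists chosen with earlier results of these data known. Each count below is to be read against the shares of all genes tested, 15.2% higher and 17.9% lower in wild type, 2.52% and 2.4% in MOER and 7.44% and 9.48% in ERKO. Of the 6 further oligosaccharyltransferase subunits all 6 rose, with a median of 0.80, among them Tmem258 (1.29) and Ostc (1.17). In MOER limma called 0 of the 6 (unadjusted, 1 higher and 1 lower, and by the Cyber-T-style test 1 and 2), and in ERKO 4 rose, with 0.75 for Ostc (adjusted p = 0.00047). Of 31 genes that build the lipid-linked sugar donor 18 rose and 2 fell, with a median of 0.38, the highest being Pgm3 (2.17) and Gmppb (1.72), which supply activated sugars, and Dpagt1 (1.70), which starts the tree. In MOER limma called 0 of these 31 (unadjusted, 0 higher and 2 lower, and by the Cyber-T-style test 1 and 3), and in ERKO 1 rose and 2 fell, below the shares of all genes. Of 16 other translocation and insertion factors 4 rose, with a median of 0.16, among them Srpr (0.72), the partner of Srprb, and Tram1 (0.57). In MOER limma called 0 of these 16 (unadjusted, 2 higher and 0 lower, and by the Cyber-T-style test 4 and 1), and in ERKO 2 rose.

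The export and retrieval factors were counted likewise, against the same shares of all genes. Of 31 COPII accessory factors, cargo receptors and tethers 18 rose and 1 fell in wild type, with a median of 0.47, among them Preb (0.97), the exchange factor for Sar1, and the cargo receptors Tmed3 (1.39), Tmed9 (1.34) and Tmed4 (1.31). In MOER limma called 0 of these 31 (unadjusted, 3 higher and 0 lower, and by the Cyber-T-style test 6 and 2), and in ERKO 5 rose and 5 fell. Of 13 genes of the COPI coat, which returns escaped proteins to the ER, 8 rose, with a median of 0.50. In MOER 1 of the 13 rose, and in ERKO 1 rose and 5 fell. Of 9 calnexin cycle genes, which check the folding of glycoproteins, 5 rose in wild type, 2 rose in MOER and 3 fell in ERKO. Of 14 genes of ER-associated degradation 9 rose in wild type, with a median of 0.55, and 3 in MOER, while in ERKO 1 rose and 5 fell. Herpud1, a degradation factor induced by ER stress, rose by 1.18 in wild type and 0.65 in MOER and fell in ERKO (-0.997).

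Regulators and cargo were read beside the machinery. Of 11 regulators tested 7 rose in wild type, with a median of 0.60. They included Ern1 (1.30), the sensor that activates XBP1, Creb3l3 (0.76) and Atf6 (0.60), and Xbp1 itself by 0.26 (adjusted p = 0.0421). In MOER 1 of the 11 fell, Atf4 (-0.57), and in ERKO 3 fell. The transcripts of secreted hepatocyte proteins were lower or not called. Of 19 tested, limma called 0 higher and 10 lower in wild type (unadjusted 0 and 11, by the Cyber-T-style test 0 and 14), with a median of -0.34, among them Plg (-1.08), F2 (-0.83) and Apoa1 (-0.66), while Alb gave -0.014. In MOER 1 of the 19 rose and in ERKO 4 fell.

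**Figure D5:**
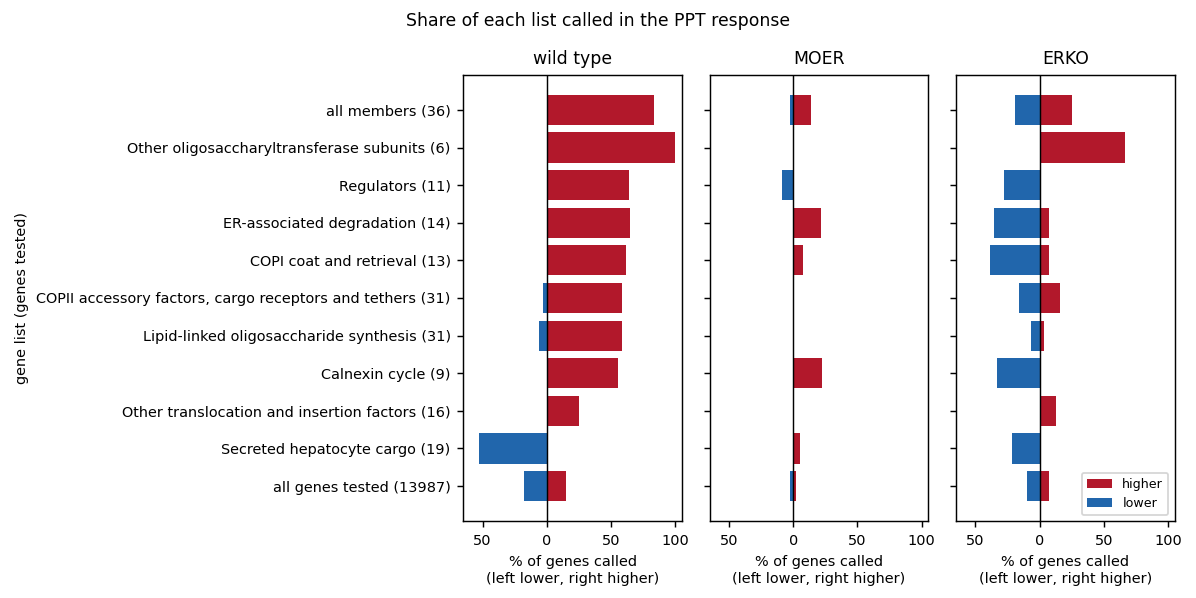
Percent of the genes tested in each list (rows, with the number tested) that were called higher (red, to the right of 0) or lower (blue, to the left) after PPT in wild type, MOER and ERKO, with the 36 genes at the top and all 13987 genes tested at the bottom. In wild type all 6 further oligosaccharyltransferase subunits and 30 of the 36 genes were higher, and of the secreted cargo 0 of 19 were higher and 10 lower.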

How the data were processed

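Transcripts were measured in whole liver on 12 Affymetrix Mouse Gene 1.0 ST arrays, 2 for each of 6 groups, each from the pooled RNA of 3 animals. The authors deposited 1 linear intensity for each of 28815 probe sets and array. The sources used here do not say how probes were summarised and arrays normalised, and the intensities were used without further normalisation because the array medians were alike. Per the labels' protocols, the authors tested with Cyber-T at 99.99% confidence and a change of at least 2-fold.

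Intensities were transformed as log2(intensity + 16), and a probe set was tested if at least 2 arrays had it above their 40th percentile, which 19119 did. A gene was its brightest probe set with 1 symbol, so a log2 change of a low gene is understated by the added 16. All arrays entered 1 fit of 6 group means (lmFit and eBayes of limma 3.58.1, run in R 4.3.3), leaving 6 residual degrees of freedom, with 9 contrasts, two-sided tests, Benjamini-Hochberg adjustment over the 19119 probe sets and a threshold of 0.05. The code was tested on simulated data. Array number limits the precision, and the median standard error of a response of the 36 genes was 0.094.

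The genes and the lists set beside them were chosen with earlier results of these data known, so lists are described by counts and medians beside those of all genes tested, with no test of a list. Values on all 12 arrays are given, in each role, for the genes with the largest and the smallest wild type change and for up to 3 more by adjusted p in a difference between responses. Alternatives were other added constants, normalisations, filters, moderation, the replicate number as a block, another choice of probe set, a Cyber-T-style test and leaving out each array. The 2 replicate numbers were not taken to pair the samples. Over 15 pairs of groups the deviations of same-numbered arrays correlated at -0.15 to 0.38, with 5 above 0.1 and 2 below -0.1. Such values cannot exclude something shared by the same-numbered arrays of some groups. Promoter windows and genomic spans came from RefSeq (GRCm38.p6).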

Additional observations from a re-analysis of the deposited data

Results flagged for a closer look

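The size of the PPT response differed between genotypes, by a test of the difference itself, for most of the 36 genes. Each value below is the difference between 2 log2 responses in the limma fit, at an adjusted p under 0.05, and the wild type arrays enter both comparisons with wild type.

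Of the signal recognition particle and receptor genes, the wild type response exceeded the MOER response by 1.47 for Srprb, 1.32 for Srp19, 0.76 for Srp68, 0.61 for Srp14, 0.61 for Srp72 and 0.49 for Srp9, and the ERKO response by 1.03 for Srprb, 1.00 for Srp68, 0.70 for Srp72 and 0.67 for Srp19. In the translocon the excess over MOER was 0.47 for Sec61a1 and 0.43 for Sec62, and that over ERKO 1.07 for Sec61a1 and 0.49 for Sec62. In the translocon-associated complex it was 1.24 for Ssr2, 1.01 for Ssr3 and 0.88 for Ssr1 over MOER and 1.06 for Ssr2, 0.74 for Ssr1 and 0.69 for Ssr3 over ERKO. For signal peptidase it was 0.93 for Spcs3, 0.85 for Spcs2, 0.67 for Sec11a, 0.66 for Sec11c and 0.52 for Spcs1 over MOER and 0.69 for Sec11a, 0.62 for Spcs2 and 0.41 for Spcs3 over ERKO.

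Of the oligosaccharyltransferase genes the wild type response exceeded that of MOER by 0.83 for Dad1, 0.73 for Stt3a and 0.64 for Rpn1, and that of ERKO by 1.43 for Stt3a, 1.06 for Rpn1, 0.97 for Dad1, 0.64 for Stt3b, 0.51 for Rpn2 and 0.47 for Ddost. For the COPII coat and the SNARE the excess over MOER was 1.75 for Sec23b, 1.20 for Sec22b, 0.94 for Sec13, 0.82 for Sec24d, 0.62 for Sar1a and 0.61 for Sec23a, and that over ERKO 2.16 for Sec23b, 1.37 for Sec24d, 1.04 for Sec22b, 1.00 for Sec13, 0.91 for Sec23a, 0.78 for Sec31a and 0.48 for Sar1a.

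The MOER response minus the ERKO response was above 0 with 0.90 for Rpn2, 0.70 for Stt3a, 0.60 for Sec61a1, 0.55 for Sec24d and 0.53 for Sec24a, and below 0 with -0.66 for Srp19, -0.57 for Srp9 and -0.52 for Spcs3. The 3 genes called below 0 act in targeting or signal peptide removal, and the 5 called above 0 in the translocon, the oligosaccharyltransferase or the COPII coat. With the median of a gene's probe sets 5 genes were called above 0 and 2 below. Only Srp9 and Sec61b have several probe sets, and the second of Srp9 gave -0.011 in MOER and 0.31 in ERKO, neither called. Other genes lay below 0 without being called, the COPII genes Sar1b (-0.30) and Sar1a (-0.14) among them.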

How the results depend on the processing

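Leaving out 1 array at a time gave 28 to 32 called genes in the wild type response, 1 to 9 in MOER and 8 to 18 in ERKO, 21 to 30 for wild type minus MOER, 19 to 26 for wild type minus ERKO and 3 to 13 for MOER minus ERKO, and under oil 3 to 11 for ERKO, 0 to 6 for MOER against wild type and 0 to 4 for MOER against ERKO. These counts add genes called higher and lower. Those of the wild type response, 30 genes, and of its differences from MOER and ERKO, 25 each, stayed within 1.5 times in each of those fits. They did so under each other alternative except the Cyber-T-style test with a 2-fold minimum at a p under 1e-04. Several alternatives also called genes lower. In the wild type response 1 gene was lower with quantile normalization and 1 with a 60th percentile filter. In wild type minus MOER 2 were lower with an added 64, quantile normalization, median centring, a 60th percentile filter or a trended prior. With a trended prior 1 gene of wild type minus ERKO was lower. Some fits without 1 array also called genes lower in the wild type response and in wild type minus MOER. The Cyber-T-style test called 13 wild type genes and 0 for the MOER and ERKO responses and for each comparison under oil. It compares 2 groups and was not run on the differences between responses.

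The smaller counts moved more. The MOER response, 6 genes, became 9 with quantile normalization or centring. It became 8 with an added 64, a 60th percentile filter or a trended prior. MOER minus ERKO, 8 genes, became 16 with quantile normalization, 15 with median centring and 17 with a trended prior. ERKO against wild type under oil, 6 genes, became 12 with quantile normalization or centring, 11 with the trend and 3 without a filter. MOER against wild type under oil, 3 genes, became 5 with an added 64 or a 60th percentile filter and 7 with quantile normalization, centring or the trend. MOER against ERKO under oil, 1 gene, became 2 under those same 5 alternatives and 0 without a filter, which also left 3 in the MOER response. The causes were not tested. No gene's called response changed sign under any alternative run. Median centring moved the median of all genes by at most 0.079.

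With the replicate number as a block the wild type, MOER and ERKO responses had 30, 5 and 17 called genes, with 24, 25 and 7 for the differences between responses and 4, 2 and 1 under oil. The MOER rise of Stt3a was lost under this replicate block (adjusted p = 0.063) and with an added constant of 1 (adjusted p = 0.0527). The 2 arrays of a group limit all of these counts, and a lone array is assumed to vary like the other groups.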
